A study of Mus musculus with 4 samples.

Results

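Klf2, Klf3, Foxo1, S1pr1, S1pr4, Ccr7 and Cd69, 7 genes of the circuit that governs whether a lymphocyte leaves a tissue or stays in it, were examined in RNA sequencing libraries of activated lung group 2 innate lymphoid cells (ILC2s). They were selected by gene symbol, and all 7 were found among the 22558 genes of the count table. ILC2s are lymphocytes of tissues that carry no rearranged antigen receptor and secrete type 2 cytokines on sensing the epithelial cytokine IL-33. The study compared 2 WT libraries (C57BL/6 mice) with 2 libraries labelled ICAM-1 KO (Icam1-deficient mice on a C57BL/6 background, here called KO-labelled), to learn how loss of the adhesion molecule ICAM-1 alters ILC2s. All mice were 6 weeks old and had received 3 intranasal challenges with 0.5 µg recombinant mouse IL-33. Lungs were taken on day 4, and each library was made from the sorted ILC2s of 4 pooled mice. The deficiency was carried by all cells of the animal and not by ILC2s alone, and no unchallenged group was included. Pools do not show the spread between single mice.

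FOXO1 is a transcription factor that is held out of the nucleus when PI3K and AKT are active, as they are after many cytokine signals. In resting lymphocytes it enters the nucleus and supports KLF2, a zinc finger factor that in turn drives S1PR1, the receptor by which lymphocytes follow sphingosine-1-phosphate (S1P) out of tissue into blood and lymph. KLF3 is a related zinc finger factor that mostly represses and whose gene is a target of other KLF proteins. S1PR4 is another S1P receptor of blood cells, and CCR7 guides cells toward lymphatic vessels and into lymph nodes. CD69 is a membrane protein of recently activated and of tissue-resident lymphocytes that binds S1PR1 and removes it from the cell surface. KLF2 and S1PR1 are also well known in endothelium, so these genes are not particular to lymphocytes.

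The promoters of Klf2 and Klf3 are shown because these are the members that encode KLF factors and because both differed between the groups, as described below. Each window runs from 250 bases before to 50 bases after the RefSeq start of the gene (GRCm38.p6, the assembly of mm10), both on the plus strand, Klf2 at chr8:72318812-72319111 and Klf3 at chr5:64803271-64803570. Capitals mark the CACCC box that KLF factors recognise, on either strand and so also as GGGTG, and in Klf2 a match to the MEF2 motif, the site of factors that act on Klf2 downstream of the kinase ERK5.
Klf2: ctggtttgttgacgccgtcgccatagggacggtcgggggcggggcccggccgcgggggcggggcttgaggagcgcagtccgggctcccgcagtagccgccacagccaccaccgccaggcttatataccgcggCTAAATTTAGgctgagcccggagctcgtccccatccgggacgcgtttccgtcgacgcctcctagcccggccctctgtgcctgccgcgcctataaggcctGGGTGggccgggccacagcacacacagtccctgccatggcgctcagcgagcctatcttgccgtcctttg
Klf3: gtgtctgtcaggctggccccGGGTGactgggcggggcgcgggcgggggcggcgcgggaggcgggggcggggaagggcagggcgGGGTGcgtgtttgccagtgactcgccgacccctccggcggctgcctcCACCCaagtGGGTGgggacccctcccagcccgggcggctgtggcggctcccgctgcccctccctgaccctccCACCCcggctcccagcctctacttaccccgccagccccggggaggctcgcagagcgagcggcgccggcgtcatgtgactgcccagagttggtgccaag
The CACCC box occurred 5 times in the Klf3 window, with the matches starting at 230, 167, 120, 111 and 48 bases before the RefSeq start. In the Klf2 window it occurred 1 time, starting 19 bases before the RefSeq start on the minus strand. The RefSeq starts lie downstream of the gene coordinates given below, which begin at 72319033 for Klf2 and 64803388 for Klf3. By those coordinates the Klf2 match and the Klf3 matches at 120, 111 and 48 bases lie inside the gene. The CACCC motif is short and common, and 57.5% of all 32851 promoter windows of this length held at least 1 match. The MEF2 match of Klf2 started 118 bases before the RefSeq start and overlapped no CACCC box, and 3.19% of all windows held such a match. The FOXO core TGTTTAC, searched on both strands, was in 3.65% of all windows and in none of the 4 windows available here, those of Klf2, Klf3, Foxo1 and S1pr4. G and C made up 69.3% of the Klf2 window and 76.7% of the Klf3 window, against a median of 52.7% over all windows. These matches describe the sequence and do not show binding.

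Estimated counts summed to 24796148 to 28782471 per library. Icam1, the gene targeted by the knockout, had estimated counts of 2579 and 2630 in WT and of 2812 and 3453 in the KO-labelled libraries, which did not pass the test (log2 fold change 0.33, edgeR adjusted p = 0.0745). Icam1 RNA was thus not lower in the KO-labelled libraries, and every direction given below rests on their labels. The paper states that its ICAM-1 KO mice lack ICAM-1, and shows flow cytometry of their lung ILC2s for this. That is a measure of protein and not of RNA. A count summed over a whole gene does not show which exons were read, and 511 exonic bases of Icam1 are shared with Gm47079, which is read from the opposite strand. Of 15 ILC2 markers, all were tested, and Gata3, Rora, Il1rl1 and Il7r, which define the lineage, were detected in every library. The summed normalized count of the 15 markers was 8128 and 8536 in WT and 7185 and 7272 in the KO-labelled libraries. Without Arg1, the most abundant of them, the sums were 6487 and 7012 in WT and 6124 and 6347 in the KO-labelled libraries.

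Klf2, Klf3 and S1pr1 were higher in the KO-labelled libraries, by 1.76-fold, 1.76-fold and 1.88-fold. Foxo1, S1pr4, Ccr7 and Cd69 did not pass the test. Thus 3 of the 7 genes were higher with an adjusted p under 0.05 and none was lower, whereas 8.8% of the 11711 genes tested were higher and 4.97% were lower (13.8% in either direction). None of the 3 reached a 2-fold change, which 5.47% of the genes tested did with an adjusted p under 0.05. Both KO-labelled libraries lay above both WT libraries for 5 of the 7 genes, the exceptions being Ccr7 and Cd69, and this pattern was seen for 28.3% of all genes tested, while the groups were apart in either direction for 59.5%. All 7 genes passed the filter on low counts, and their median log2 fold change was 0.37 against 0.01 over all genes tested.

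**Figure D1:**
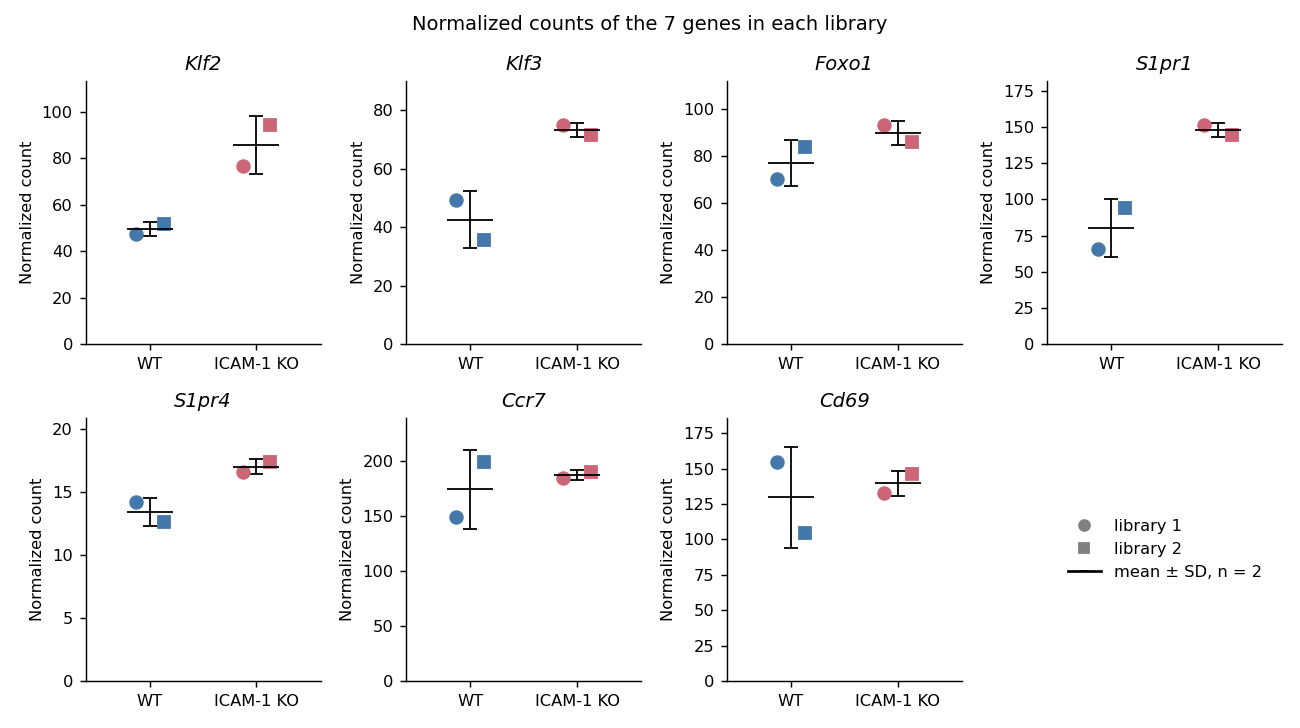
Normalized count (y axis, linear from 0) of each gene in the 2 WT and 2 ICAM-1 KO libraries, with points for single libraries and bars for the mean and SD. The groups are apart for Klf2, Klf3 and S1pr1, lie close for Foxo1 and S1pr4, and overlap for Ccr7 and Cd69.

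Klf2 (chromosome 8 of mm10, 72319033 to 72321656, plus strand) was counted at 1433 and 1632 in WT and at 2209 and 2961 in the KO-labelled libraries. On the authors' normalized scale, the value was 47.3 and 51.7 in WT and 76.7 and 94.4 in the KO-labelled libraries. The lowest of the latter was 1.48 times the highest WT value, a gap larger than the 1.23-fold spread between the KO-labelled libraries and the 1.09-fold spread between those of WT. The mean rose from 49.5 ± 3.09 (SD, n = 2) to 85.5 ± 12.5, with a log2 fold change of 0.82 ± 0.136 (SE), which passed the quasi-likelihood test of edgeR with an adjusted p of 0.00705 (Benjamini-Hochberg).

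Klf3 (chromosome 5, 64803388 to 64832901, plus strand) had a normalized count of 49.4 and 35.6 in WT and of 75 and 71.6 in the KO-labelled libraries. Here the WT libraries were the more variable, 1.39-fold apart, and the groups did not overlap. The mean rose from 42.5 ± 9.77 (SD, n = 2) to 73.3 ± 2.36, with a log2 fold change of 0.81 (SE, the standard error, 0.157, edgeR adjusted p = 0.0125). Exons of Klf3 share 404 bases with Gm20033, a gene on the other strand, and reads from such stretches cannot be assigned with certainty where the counting did not use strand. Klf2 and Klf3 thus had nearly the same fold change, but within WT Klf2 was slightly higher in library 2 and Klf3 was higher in library 1.

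Foxo1 (chromosome 3, 52268336 to 52353221, plus strand) had normalized counts of 70.2 and 84.1 in WT and of 93.3 and 86.1 in the KO-labelled libraries. The groups did not overlap, but the nearest libraries were only 1.02-fold apart, less than the 1.2-fold spread within WT. The log2 fold change was 0.24 (SE 0.119, edgeR adjusted p = 0.207), with a 95% interval from -0.027 to 0.51. The interval therefore leaves room for no difference and for one of up to 1.43-fold. Foxo1 shares 674 exonic bases with Gm20402 on the other strand.

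S1pr1 (chromosome 3, 115710433 to 115715072, minus strand) showed the largest difference of the 7 genes with all 4 libraries, but not without WT library 1, where Klf3 was at a log2 fold change of 1.07, Klf2 at 0.75 and S1pr1 at 0.68, nor without KO-labelled library 1, where Klf2 was at 0.97 and S1pr1 at 0.89. It was counted at 1997 and 2974 in WT and at 4362 and 4540 in the KO-labelled libraries, or 66 and 94.2 against 151 and 145 normalized counts. Both KO-labelled libraries were above both WT libraries, the nearest being 1.54-fold apart, while the WT libraries differed from each other by 1.43-fold. The mean rose from 80.1 ± 20 (SD, n = 2) to 148 ± 4.79, with a log2 fold change of 0.91 (SE 0.152, edgeR adjusted p = 0.00705). The 95% interval of the fold change ran from 1.48 to 2.39, and S1pr1 ranked 907 among the genes tested when ordered from the highest log2 fold change down.

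S1pr4 (chromosome 10, 81497747 to 81500132, minus strand) was counted at 429 and 397 in WT and at 477 and 545 in the KO-labelled libraries, the lowest counts among the 7 genes. Counting error alone amounts to 4.28% to 5.02% of each of these counts, compared with at most 2.98% for the other members. The normalized counts of 14.2 and 12.6 in WT and 16.6 and 17.4 in the KO-labelled libraries did not overlap, but the difference did not pass the test (log2 fold change 0.37, SE 0.208, edgeR adjusted p = 0.265). Its 95% interval, -0.098 to 0.84, includes both no change and the estimates obtained for Klf2 and Klf3.

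Ccr7 (chromosome 11, 99144196 to 99155077, minus strand) had normalized counts of 149 and 199 in WT and of 184 and 190 in the KO-labelled libraries, which lay between the WT values. The log2 fold change was 0.13 (SE 0.132, edgeR adjusted p = 0.543) with a 95% interval of the fold change from 0.891 to 1.35. Ccr7 is a surface receptor of naive and central memory T cells, B cells and migrating dendritic cells, and its RNA was the most abundant of the 7 genes per length. Without WT library 1 the log2 fold change was -0.063.

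Cd69 (chromosome 6, 129267325 to 129275436, minus strand) had normalized counts of 155 and 104 in WT and of 133 and 146 in the KO-labelled libraries. As for Ccr7, the KO-labelled libraries lay within the range of WT, whose libraries were 1.48-fold apart, the widest spread of any member. The log2 fold change was 0.13 (SE 0.165, edgeR adjusted p = 0.636), the 95% interval of the fold change ran from 0.847 to 1.42, and without WT library 2 the log2 fold change was -0.12. RNA levels do not show how much CD69 or S1PR1 protein was on the cells.

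**Figure D2:**
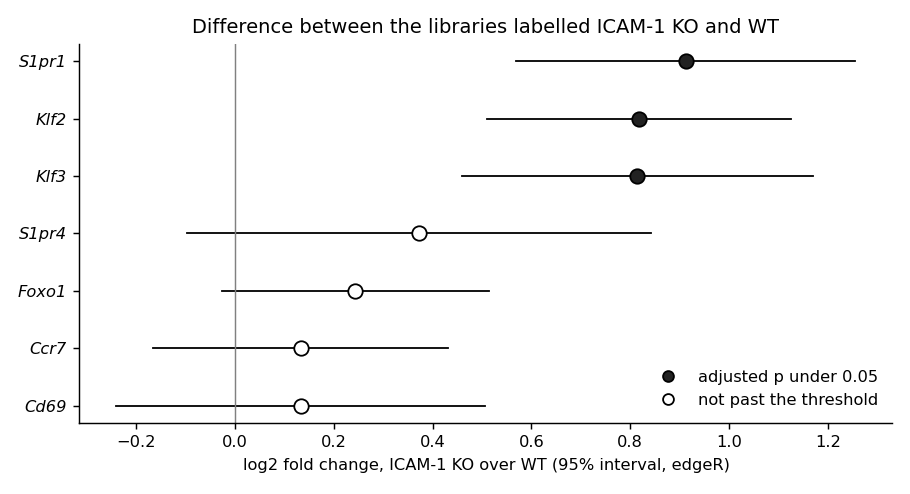
Log2 fold change of each gene (x axis, KO-labelled libraries over WT) with its 95% interval from edgeR, filled where the adjusted p was under 0.05. The intervals of S1pr1, Klf2 and Klf3 lie above 0, and those of S1pr4, Foxo1, Cd69 and Ccr7 include 0.

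Because S1PR1 and CD69 proteins oppose each other at the cell surface, the ratio of S1pr1 to Cd69 counts was taken within each library, where it needs no scaling between libraries. It was 0.426 and 0.901 in WT and 1.14 and 0.992 in the KO-labelled libraries. Both of the latter exceeded both WT values, but the 2 WT libraries differed from each other more than WT library 2 did from either KO-labelled library. The ratio of Ccr7 to S1pr1 counts was 2.26 and 2.12 in WT and 1.22 and 1.32 in the KO-labelled libraries, so here the libraries of each group lay close together. These ratios were chosen after the values were seen and carry no test.

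To compare the members with each other, normalized counts were divided by the total exon length of the gene in kilobases. In WT the mean level per kilobase was 88 for Ccr7, 26.8 for Klf2, 26.3 for S1pr1, 19.9 for Cd69, 8.9 for Foxo1, 5.62 for S1pr4 and 3.78 for Klf3. The ranges of Klf2, S1pr1 and Cd69 were not all separate, since both Klf2 libraries lay within the 21.7 to 30.9 of S1pr1 and the higher Cd69 library, at 23.8, did so too. In the KO-labelled libraries, S1pr1 at 48.6 and Klf2 at 46.3 were not separable from each other, and both lay above Cd69 at 21.4. Ccr7 at 94.8 stayed above all others, and Foxo1 at 10.4, S1pr4 at 7.12 and Klf3 at 6.52 followed Cd69 in that order. Of the genes tested that have an exon length, 94.8% had a lower level per kilobase than Ccr7 over the 4 libraries, 87.2% than S1pr1, 86.9% than Klf2 and 43.4% than Klf3. The exon length adds up the exons of all annotated transcripts, 9 for Klf3 and 5 for Cd69 but 1 for Klf2, S1pr1, S1pr4, Foxo1 and Ccr7, so levels of Klf3 and Cd69 are understated where long exons are rarely used.

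**Figure D3:**
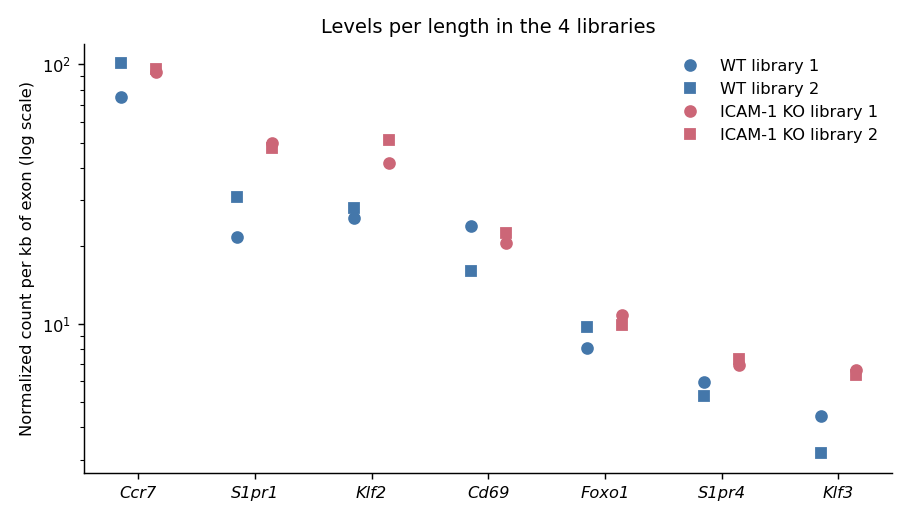
Normalized count per kilobase of exon (y axis, log scale) of the 7 genes in each library, ordered by the mean of the 4 libraries. Ccr7 is highest at 75.2 to 101, Klf3 lowest at 3.17 to 6.67, and the ranges of S1pr1 and Klf2 overlap.

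Of 15 other KLF family members listed, 11 were tested, of which 1 rose, 1 fell and 9 did not pass, a share called of 18.2% against 13.8% of all genes tested, with a median log2 fold change of 0.13. Klf10, which is induced by TGF-β, rose from normalized counts of 45.4 and 31.1 to 56.6 and 71.8 (log2 fold change 0.78, edgeR adjusted p = 0.032). Klf5, a factor of epithelial and muscle cells, fell from 36.2 and 26.5 to 15.3 and 18.7 (log2 fold change -0.85, adjusted p = 0.0327). Klf6, the most abundant tested family member per length among those with an exon length, had normalized counts of 477 and 344 in WT and of 335 and 379 in the KO-labelled libraries, which overlapped. A list of 10 genes that act on Klf2 or its protein, the MEK5 and ERK5 kinase cascade, MEF2 factors and ubiquitin ligases, held 1 gene that rose, 0 that fell and 9 that did not pass. The share called, 10%, was below the 13.8% of all genes tested. The 1 that rose was Mef2c, a MEF2 factor that is strong in B cells, macrophages and endothelium. It went from 5.12 and 9.28 to 26.1 and 24 normalized counts (log2 fold change 1.82, edgeR adjusted p = 0.00418). Map3k3, the most abundant gene of this list per length, had a log2 fold change of 0.17 (edgeR adjusted p = 0.384).

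Among the genes around FOXO1, 2 rose, 0 fell and 9 did not pass of the 11 tested, with a median log2 fold change of 0.21. The share called, 18.2%, was near the 13.8% of all genes tested. Sgk1, a kinase that like AKT phosphorylates FOXO factors, rose from normalized counts of 65.1 and 77.9 to 107 and 129 (log2 fold change 0.75, edgeR adjusted p = 0.00949). Akt1, the most abundant gene of the list per length, was at 345 and 344 in WT and at 302 and 297 in the KO-labelled libraries, but this difference did not pass the test (log2 fold change -0.18, adjusted p = 0.176).

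Known targets of KLF2 and FOXO1 among trafficking and cytokine receptors moved in both directions, with 2 of the 8 higher, 2 lower and 4 that did not pass. The share called was 50%, against 13.8% of all genes tested. Il6ra, the IL-6 receptor chain, rose from normalized counts of 2.64 and 2.94 to 9.87 and 11.8 (log2 fold change 1.99, edgeR adjusted p = 0.00649). Cxcr4, the receptor for the retention chemokine CXCL12, fell from 223 and 288 to 54.4 and 64.1 (log2 fold change -2.08, SE 0.143, adjusted p = 0.000136). Gpr183, an oxysterol receptor that positions lymphocytes in tissue, fell from 190 and 224 to 139 and 145 (log2 fold change -0.51, adjusted p = 0.0154). Itgb7, an integrin chain and the most abundant gene of the list per length, was at 1082 and 978 in WT and at 999 and 1016 in the KO-labelled libraries. The estimated log2 fold change of Cxcr4 was larger in size than that of S1pr1, a difference that was not tested.

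Other genes of the S1P system were tested as well. Of 14 further receptors, enzymes and transporters, 11 were tested, with 2 that rose, 1 that fell and 8 that did not pass. This is a share called of 27.3%, against 13.8% of all genes tested. Spns2, the transporter by which endothelium releases S1P, rose from 4.73 and 3.2 to 12.3 and 10.9 normalized counts (log2 fold change 1.59, edgeR adjusted p = 0.0129), and Plpp1, a lipid phosphatase that degrades extracellular S1P, rose from 11 and 8.16 to 17.5 and 22.9 (log2 fold change 1.12, adjusted p = 0.0222). Asah1, the acid ceramidase that yields sphingosine and the most abundant gene of the list per length, fell from 50.5 and 57.2 to 39.2 and 36.4 (log2 fold change -0.48, adjusted p = 0.0427). In a list of 16 genes for G protein coupling, receptor uptake and the motility response, 2 rose, 1 fell and 13 did not pass, which is 18.8% called and near the 13.8% of all genes tested, and the median log2 fold change was 0.01. The 2 that rose were Dock2, a Rac activator of migrating lymphocytes (log2 fold change 0.41, adjusted p = 0.0163), and Stk4, the MST1 kinase (0.35, adjusted p = 0.0342). Rgs1, which damps chemokine receptor signals and is high in resident lymphocytes, fell from 1554 and 1448 to 1099 and 1210 normalized counts (log2 fold change -0.35, adjusted p = 0.0358), whereas Coro1a, an actin regulator needed for egress and the most abundant gene of this list per length, had a log2 fold change of -0.063 (adjusted p = 0.684).

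Genes linked to tissue residency did not move one way. Of 9 tested, 4 rose, 2 fell and 3 did not pass, a share called of 66.7% against 13.8% of all genes tested. The integrin gene Itga1 rose from 5.81 and 3.78 to 15.6 and 21 normalized counts (log2 fold change 1.98, edgeR adjusted p = 0.00494), Cd101 from 10 and 8.45 to 23 and 20.8 (1.27, adjusted p = 0.00766), and Prdm1, the gene of the repressor BLIMP-1, from 27.2 and 36.3 to 55.6 and 55.6 (0.83, adjusted p = 0.0116). The chemokine receptor gene Cxcr6 fell from 647 and 648 to 451 and 438 (log2 fold change -0.52, adjusted p = 0.0047), and Bhlhe40, the most abundant gene of the list per length, fell from 2010 and 1934 to 1442 and 1527 (-0.38, adjusted p = 0.0202). Both genes that fell had far higher normalized counts than the 3 named that rose. Among the genes named from the lists so far, exons of Itga1, Il6ra, Spns2, Plpp1, Dock2, Bhlhe40 and Coro1a overlap those of another gene, so their counts are uncertain. The same holds for Gata3, Rora, Il5, Foxp3, Cd3e, Cd247, Hopx and Klrb1c among the named markers of cell types. Cd74 and Csf1r also overlap other genes but had no exon length, so whether they share exon bases was not determined. For Itga1 the other gene, Gm49395, is on the same strand, which strand information would not resolve. Foxp3, Gata3, Cd247 and Klrb1c also share exon bases with a gene on the same strand.

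**Figure D4:**
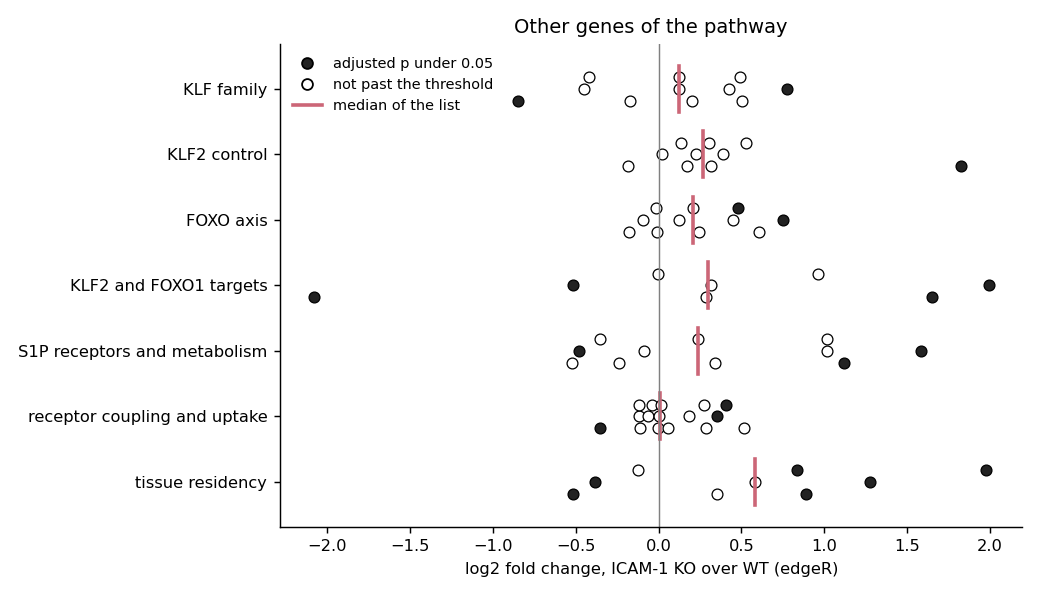
Log2 fold change (x axis, KO-labelled libraries over WT) of each tested gene in the 7 lists around the members, filled where the adjusted p was under 0.05, with the median of each list as a vertical bar. The KLF2 and FOXO1 targets spread widest, from Cxcr4 at -2.08 to Il6ra at 1.99, and receptor coupling genes lie close to 0.

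Markers of other cells moved with these differences. The cells had been sorted as negative for lineage proteins, among them CD3ε, CD4, CD5, CD45R, Gr-1, CD11c and CD11b, and positive for CD45, ST2 and CD127. This gate would remove T cells, B cells, myeloid cells that carry the lineage proteins, endothelium and alveolar epithelium. The paper also reports a high purity of the sorted cells used for sequencing. The sums below include listed genes that were too low to be tested. All 19 endothelial markers listed were tested and rose, with a median log2 fold change of 1.64. Their summed normalized count was 356 and 331 in WT and 876 and 893 in the KO-labelled libraries, with Calcrl, Pecam1 and Plvap the most abundant. Of 15 T cell markers, 7 rose and 0 fell, with a sum of 768 and 929 in WT and of 1343 and 1585 in the KO-labelled libraries. Trbc2, Trac and Foxp3 were the most abundant. Trac, the constant region of the T cell receptor α chain, rose from 58.8 and 78.7 in WT to 183 and 225 in the KO-labelled libraries, whereas Trbc2, a constant region of the β chain, did not pass the test, at 245 and 239 against 269 and 295 (edgeR adjusted p = 0.0987). Of the genes of the CD3 complex, Cd3d rose. Cd3e (log2 fold change 0.17, edgeR adjusted p = 0.69), Cd3g (-0.33, adjusted p = 0.158) and Cd247 (0.72, adjusted p = 0.0995) did not pass the test. Cd4 and Cd5, whose proteins are among the lineage proteins of the sort, rose with a log2 fold change of 1.55 each (edgeR adjusted p = 0.00143 and 0.000711). These CD3 genes, Cd4 and Cd5 were chosen after their values were seen. Of 10 B cell markers tested, 6 rose and 0 fell. The sum of all 12 listed was 1066 and 2119 in WT and 4037 and 5570 in the KO-labelled libraries, most of it from Ighm, without which the list, whose next genes were Ms4a1 and Cd79b, summed to 192 and 174 against 356 and 290.

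Dendritic cell markers rose in 7 of 9 cases and fell in 0, and their sum, led by Cd74, H2-Ab1 and H2-Aa, was 961 and 890 in WT and 1525 and 1785 in the KO-labelled libraries. Macrophage and monocyte markers rose in 9 of 11 cases, led by Lyz2, Cd14 and Csf1r, with sums of 284 and 299 against 599 and 862. Alveolar epithelial markers, led by Sftpc, Sftpa1 and Hopx, rose in 6 of 9 cases, with sums of 117 and 105 against 537 and 1032, while NK cell markers, led by Txk, Gzma and Klrb1c, rose in 1 of 4 with overlapping sums of 39.5 and 70 against 74.7 and 55.3. The share called was 100% for endothelium, 46.7% for T cells, 60% for B cells and 77.8% for dendritic cells. It was 81.8% for macrophages and monocytes, 66.7% for alveolar epithelium and 25% for NK cells, against 13.8% of all genes tested. No marker of any list was at 0 in all 4 libraries. By contrast, 2 of the 15 ILC2 markers rose and 4 fell, a share called of 40%. The 3 most abundant ILC2 markers, Arg1, Il5 and Ptprc, included 2 that fell, Arg1 and Il5, while Ptprc rose. Gata3, Rora, Il1rl1 and Il7r, named above as defining the lineage, did not pass the test. Their log2 fold changes were -0.14, 0.079, 0.21 and 0.28 (edgeR adjusted p = 0.363, 0.631, 0.173 and 0.0513). In bulk libraries, more cells that express a gene and more RNA of it per cell cannot be told apart. Whether RNA of these other cells contributed to the higher Klf2, Klf3 and S1pr1 was not tested.

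**Figure D5:**
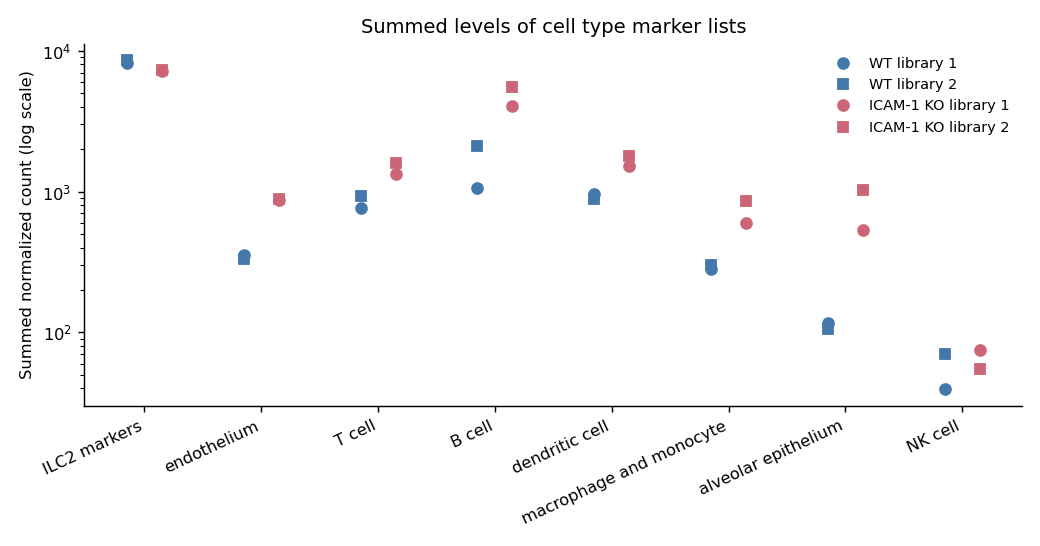
Summed normalized count (y axis, log scale) of the ILC2 markers and 7 lists of markers of other cells in each library. The endothelial sum is 331 to 356 in WT and 876 to 893 in the KO-labelled libraries. The ILC2 sum is 8128 to 8536 in WT and 7185 to 7272 in the KO-labelled libraries, and the NK cell sums of the groups overlap.

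Genes with the profile most like Klf2 were sought by the distance between log2 normalized counts, each centred on its own mean over the 4 libraries. The nearest were Plk2, Snx21 and Fyb, at distances of 0.0435, 0.0622 and 0.0681, and 92 genes lay within 0.2. S1pr1 ranked 563 by this measure at a distance of 0.397 and Klf3 ranked 1062 at 0.497. For S1pr1 the nearest genes were Glce, Ankrd33b and Cd24a, at 0.0306, 0.0433 and 0.0501, and 36 genes lay within 0.2. Snx21, at normalized counts of 2.4 to 4.81, did not pass the test (edgeR adjusted p = 0.173), nor did Glce, at 4.99 to 11.7 (adjusted p = 0.0674). Plk2, Fyb, Ankrd33b and Cd24a did. With 4 libraries such a ranking describes these values only.

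The statement that Klf2, Klf3 and S1pr1 rose held with each library left out in turn, with log2 fold changes of 0.65 to 0.97 for Klf2, 0.6 to 1.07 for Klf3 and 0.68 to 1.19 for S1pr1, and a highest adjusted p of 0.048, 0.0499 and 0.0229 from edgeR. When the 22158 genes left without any filter on low counts were tested, none of the 3 passed, with adjusted p-values of 0.053 for Klf2, 0.0826 for Klf3 and 0.0573 for S1pr1, although all 3 had an unadjusted p under 0.05.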

How the data were processed

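Libraries of sorted activated lung ILC2s were compared, 2 from WT and 2 from ICAM-1 KO mice. The authors made cDNA with a SMARTer low-input kit, used STAR for alignment to the mm10 genome (annotation GENCODE M20), and deposited expected counts per gene, estimated in Partek, of which 52.3% are whole numbers. The STAR version differs between the study's methods and the submitters' processing notes, and whether counting used strand is not given in the sources used here. The authors also deposited a normalized signal after upper quartile normalization, in which each value is the count plus 1 times 1 factor per library. These are the normalized counts given here.

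Counts were rounded and tested with edgeR 4.0.16 in R 4.3.3 (upper quartile factors, the current dispersion method of glmQLFit, and no covariate) across 11711 genes whose normalized counts averaged 1 or more and summed to 10 or more. These cut-offs are those of the study's methods, but the paper reports more detected transcripts, so the genes tested are not the same set. Benjamini-Hochberg adjustment covered all 11711 genes, with a threshold of 0.05. The fitting scripts were tested on simulated data with known fold changes. The p-values rest on the spread between 2 pools per group, which edgeR moderates for each gene with information from all genes tested. An exact permutation test of 2 against 2 cannot give a p below 0.333. Depth was 24796148 to 28782471 counts per library, and counting errors assume independent reads, which libraries without molecular identifiers do not provide.

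Exon lengths come from GENCODE M21, whose coordinates equal the table's for 21881 genes after moving the end by 1 base, and promoters from RefSeq (GRCm38.p6), where 4 of the 7 members were found and S1pr1, Ccr7 and Cd69 were not. The CACCC and FOXO motifs were chosen for the members' biology and the MEF2 motif after the sequence was seen. The members and all gene lists were chosen with earlier results of these data known. Named genes were the 7 members, Icam1, up to 3 genes per direction with the smallest adjusted p and the most abundant gene per length of each pathway list, the 3 most abundant genes of each marker list, and the 3 genes nearest to Klf2 and to S1pr1. The ILC2 markers named as defining the lineage were chosen after their values were seen. Il7r was in 2 lists. Some genes counted in the lists are not reported here by name. Alternatives were TMM factors, DESeq2 1.42.0, no filter, edgeR's filterByExpr, the older quasi-likelihood method, the replicate number as a block, and each library left out.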

Additional observations from a re-analysis of the deposited data

How the results depend on the processing

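Klf2, Klf3 and S1pr1 were the members called with TMM factors, DESeq2, filterByExpr, the older quasi-likelihood method, the replicate block and each library left out. Without a filter on low counts 0 members were called by edgeR (3 at an unadjusted p under 0.05), with log2 fold changes of 0.77 for Klf2, 0.77 for Klf3 and 0.87 for S1pr1, and 334 genes were higher and 201 lower instead of 1030 and 582. In that setting the p-values are adjusted over 22158 genes. DESeq2 called 930 lower genes, and the cause was not tested. With each library left out, 479 to 948 genes were higher and 158 to 388 lower, with 3 libraries in the fit and the lone library of a group assumed to vary like the other group. Without WT library 1 there were 479 and 208, without WT library 2 there were 523 and 158, and without ICAM-1 KO library 1 there were 357 lower genes. The log2 fold change of Ccr7 was -0.063 without WT library 1 and that of Cd69 was -0.12 without WT library 2, both reversed. The ranges over the libraries left out were -0.063 to 0.36 for Ccr7, -0.12 to 0.44 for Cd69, 0.12 to 0.38 for Foxo1 and 0.29 to 0.46 for S1pr4.

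The replicate numbers 1 and 2 occur in both groups, but the animals differ. Deviations of same-numbered libraries from their group means correlated at -0.066, so the numbers were not taken to pair the libraries. With the replicate block, 1077 genes were higher and 638 lower, and no call of a member changed. S1pr4 had the lowest counts of the members.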
